A study of Homo sapiens with 18 samples.

Results

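The 240 genes described here are the protein-coding genes of human chromosome 19 whose symbol is ZNF followed by a number, out of 19970 protein-coding genes of the GENCODE annotation and beside 1236 other protein-coding genes of the same chromosome. They were chosen by name and place alone. For each gene the called regions of 9 deposited lists were collected: a 500-bp region counted for a gene when its midpoint lay inside the gene or within 2 kb of its most 5′ start. Of these lists, 6 come from DRIP-seq, which sequences genomic DNA pulled down by the S9.6 antibody against RNA:DNA hybrids, and 3 from anti-GFP ChIP-seq.

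DRIP-seq was done in MCF10A, a non-tumour human breast epithelial line, either with the cytidine deaminase gene A3B deleted (A3B KO) or unedited (WT). Each line was given DMSO alone or PMA, a phorbol ester that activates protein kinase C (25 ng/ml, 2 h and 6 h). The A3B KO line is a clone grown from 1 edited cell, and its guide cut homologous sites in A3B and the neighbouring deaminase gene, which left a fusion of both, so clone and genotype cannot be told apart. ChIP-seq was done in other MCF10A cells, MCF10A-TREx-A3B-eGFP, in which doxycycline (1 µg/ml, 24 h) switches on A3B joined to eGFP: with doxycycline and PMA for 2 h, with doxycycline and DMSO, and without doxycycline in DMSO.

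Every condition is 1 library, so no difference between conditions could be set against replicate error and no test was run. The intervals below are 95% intervals that cover counting error only. The DRIP lists held 98432, 120428 and 169126 regions in A3B KO cells with DMSO, PMA 2 h and PMA 6 h, and 91894, 111771 and 165877 in WT cells. How deeply each library was read is unknown, so list length and depth cannot be told apart in any comparison of counts. Of 10 basal epithelial marker genes 9 or 10 held a DRIP region in each list, of 6 luminal ones 2 to 5, of 4 fibroblast ones 2 or 3 and of 4 blood ones 0 to 3. A DRIP region is no measure of expression, so these values do not check the identity of the line.

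Most ZNF genes encode repressors of the C2H2 type. A zinc finger is a short fold in which a pair of cysteines and a pair of histidines hold a zinc ion, and a string of fingers reads DNA along one strand. In many of these proteins a KRAB domain at the other end recruits TRIM28 and, through it, the histone methyltransferase SETDB1, and much of the family silences transposable elements. Chromosome 19 carries them in clusters of tandem copies that are themselves packed in H3K9me3 chromatin, most densely over the exon that encodes the fingers. R-loops, in which RNA pairs with its template and leaves the other DNA strand single, form mostly within transcribed genes, and single-stranded DNA is what APOBEC enzymes such as A3B deaminate.

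The finger exon sets the architecture of these genes. The C2H2 motif (2 residues between the cysteines, 12 to the first histidine, 3 to 5 between the histidines) occurred 1 to 36 times per encoded protein, with a median of 12, and in 234 of the 240 genes every motif lay in the last coding exon. That exon had a median length of 1523 bp in ZNF genes, against 168 bp in the other genes of the chromosome. The genes were 3117 to 488696 bp long with a median of 25452.5 bp, against 13985 bp. A pair of neighbouring fingers of ZNF208, the member with most motifs, shows the tandem repeat of 84 bases (hg38 chr19:21974197-21974343, minus strand, last coding exon). Capitals mark the codons of the cysteines and histidines:
ZNF208 fingers: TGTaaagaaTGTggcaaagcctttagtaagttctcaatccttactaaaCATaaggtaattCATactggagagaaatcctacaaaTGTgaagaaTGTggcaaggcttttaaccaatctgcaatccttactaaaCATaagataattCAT

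The DNA under the called regions shown next looks different. The next sequences are 200 bases around the midpoint of WT DMSO regions that overlap a region in each of the other DRIP lists. Both come from gene bodies and were taken, outside UTRs, for high fold enrichment in WT DMSO. They are written on the coding strand of the gene, lie in introns, and have the longest stretch of only A and G or only C and T in capitals. They are shown as examples of a purine tract and of a pyrimidine stretch in GC-rich DNA.
ZNF91 body (hg38 chr19:23323706-23323905, minus): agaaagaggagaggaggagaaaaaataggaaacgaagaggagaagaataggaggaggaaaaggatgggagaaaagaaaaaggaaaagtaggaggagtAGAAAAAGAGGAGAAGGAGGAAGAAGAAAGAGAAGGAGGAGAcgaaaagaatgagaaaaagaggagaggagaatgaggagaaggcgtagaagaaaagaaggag
ZNF574 body (hg38 chr19:42075662-42075861, plus): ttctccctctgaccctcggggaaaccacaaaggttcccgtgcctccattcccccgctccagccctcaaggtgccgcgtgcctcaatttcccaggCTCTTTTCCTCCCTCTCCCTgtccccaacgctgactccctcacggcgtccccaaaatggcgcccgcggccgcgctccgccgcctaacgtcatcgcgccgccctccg

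ZNF208 and, further on, ZNF865 are named for their sequences and were picked after the values had been seen. The ZNF91 region is a purine tract in which the longest unbroken stretch has 42 bases. ZNF91, a repressor of SVA elements, had this region with a fold enrichment over local background of 10.9, 11.1 and 12.4 in A3B KO cells (DMSO, PMA 2 h, PMA 6 h), against 10.8, 8.97 and 8.94 in WT cells. It stood above the 90 percentile of each list. Fold enrichment depends on depth, so the percentile within each list is given as well. The ZNF574 region stood at the 97.9, 38.7 and 27.5 percentile in A3B KO cells and at 98.6, 77.9 and 51.7 in WT cells. Both regions were picked for their rank in WT DMSO and the lists differ in length, so nothing is read from lower ranks elsewhere.

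About as many ZNF genes as genes in general held a DRIP region. In A3B KO cells 172 of the 240 genes (71.7%, interval 65.7 to 77.0%) held at least 1 region with DMSO, 189 (78.8%, 73.1 to 83.5%) after PMA for 2 h and 208 (86.7%, 81.8 to 90.4%) after PMA for 6 h. In WT cells the counts were 168 (70.0%, 63.9 to 75.4%), 177 (73.8%, 67.8 to 78.9%) and 204 (85.0%, 79.9 to 89.0%). Of all protein-coding genes 71.9%, 73.5% and 77.2% held a region in the A3B KO lists and 70.1%, 70.8% and 77.6% in the WT lists, so the share of ZNF genes was near the background with DMSO and above it at 6 h. Cut to equal length, the lists gave 69.6%, 71.2% and 72.9% of the ZNF genes in A3B KO cells and 70.0%, 68.3% and 71.7% in WT cells. Lists of that length gave 70.8%, 68.7% and 67.8% of all genes in A3B KO cells and 70.1%, 67.3% and 67.4% in WT cells. After PMA these shares were a few points below those of ZNF genes. No intervals were computed at equal length, so no excess of ZNF genes is read from them.

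Length hid a deficit. Among genes under 15 kb with DMSO, 49.1% of 53 ZNF genes held a region in A3B KO cells (36.1 to 62.1%), against 68.4% of 649 other chromosome 19 genes (64.7 to 71.9%). In WT cells the same class gave 50.9% (37.9 to 63.9%) against 66.6% (62.8 to 70.1%). Between 15 and 40 kb the shares with DMSO were 72.8% of 136 ZNF genes against 89.7% of 389 others in A3B KO cells, and 69.1% against 89.97% in WT cells. Over 40 kb, where nearly every gene held a region, they were 92.2% of 51 against 97.5% of 198 in A3B KO cells and 92.2% against 96.5% in WT cells. With DMSO, ZNF genes were thus lower than their chromosome 19 neighbours of like length in each class. Over 40 kb the intervals overlapped in A3B KO cells (81.5 to 96.9% against 94.2 to 98.9%).

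Density showed where in the gene the deficit lay. With DMSO, ZNF genes of A3B KO cells held 11.7 regions per 100 kb within 2 kb of the start, 7.99 in the body and 5.22 in the last 2 kb, against 18.9, 13.6 and 20.95 for the other genes of chromosome 19. In WT cells they held 10.1, 7.16 and 6.47, against 19.4, 14.4 and 20.4. The ratio of ZNF genes to the others with DMSO was 0.617 at starts (0.502 to 0.751), 0.590 in bodies (0.537 to 0.646) and 0.249 at 3′ ends (0.160 to 0.372) in A3B KO cells. It was 0.521 (0.419 to 0.643), 0.498 (0.452 to 0.548) and 0.318 (0.213 to 0.457) in WT cells. ZNF genes were sparsest at the end in each of the 6 lists. The other genes were at least as dense at their ends as at their starts with DMSO, but not after PMA. In WT PMA 6 h they too were sparsest at the end, with 20.4 per 100 kb against 22.2 in bodies and 23.4 at starts.

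**Figure D1:**
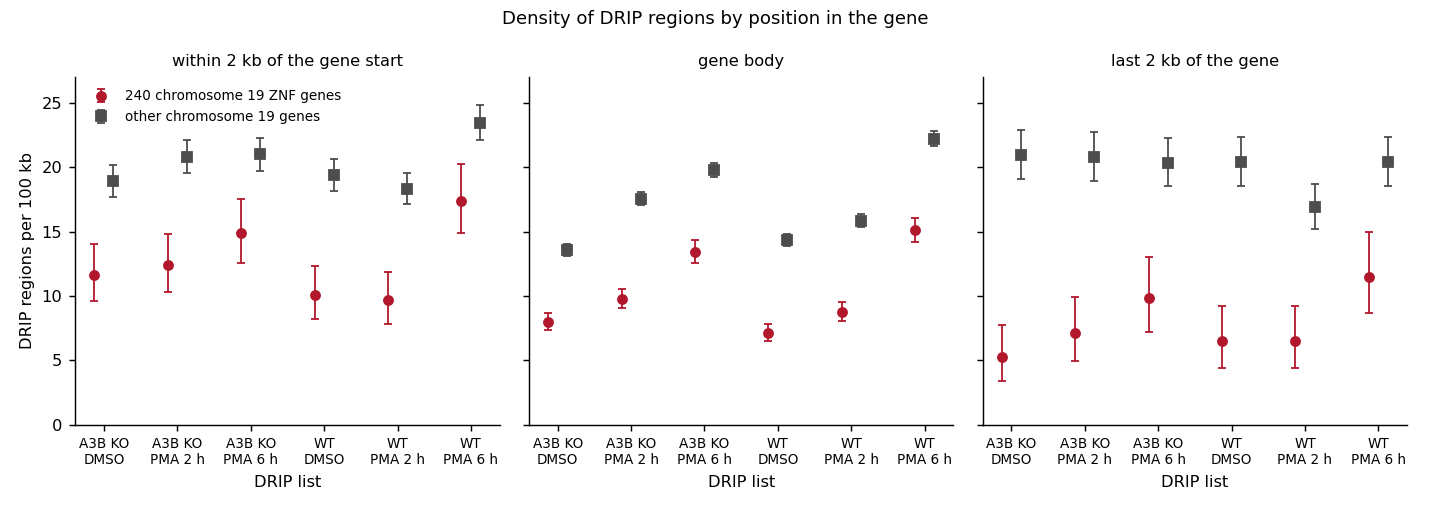
DRIP regions per 100 kb (vertical axis) of the 240 chromosome 19 ZNF genes (red circles) and the 1236 other chromosome 19 genes (grey squares) in each DRIP list, near the start, in the body and in the last 2 kb. Bars are 95% exact Poisson intervals, and ZNF genes lie lower in every panel and list, most of all at 3′ ends with DMSO (5.22 against 20.95 in A3B KO cells).

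After PMA for 6 h the order of starts, bodies and ends in ZNF genes held at higher levels. ZNF genes then had 14.9, 13.4 and 9.81 regions per 100 kb at starts, bodies and ends in A3B KO cells, with ratios to the other genes of 0.709, 0.680 and 0.483. In WT cells they had 17.4, 15.1 and 11.5, with ratios of 0.742, 0.680 and 0.564. All protein-coding genes together had fewer regions per 100 kb of body than ZNF genes, from 3.85 with WT DMSO to 7.01 with A3B KO PMA 6 h, so the ZNF bodies were sparse by the standard of their own chromosome only.

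The decline ran along the whole body. Split into 5 equal stretches from start to end, ZNF bodies with DMSO held 10.01 regions per 100 kb in the first and 5.98 in the last stretch in A3B KO cells, and 8.81 and 5.23 in WT cells. Bodies of the other genes held 14.7 and 13.8 in A3B KO cells and 16.3 and 13.8 in WT cells. In the first 2 kb after the start ZNF genes held more regions than in the 2 kb before it in all 6 lists, with 68 against 44 in A3B KO DMSO and 57 against 40 in WT DMSO.

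**Figure D2:**
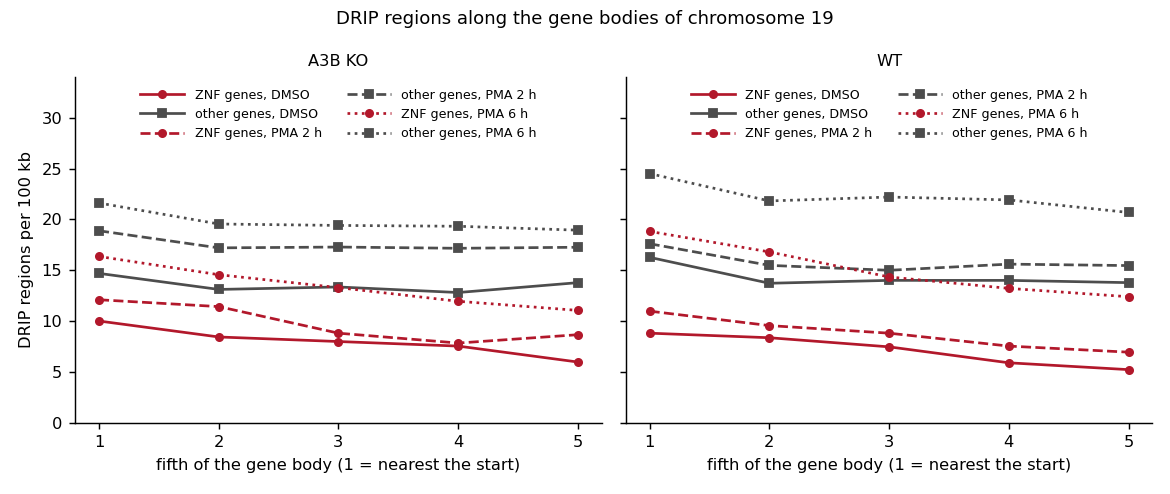
DRIP regions per 100 kb (vertical axis) in each of 5 equal stretches of the gene body, from the start to the 3′ end, for ZNF genes (red) and other chromosome 19 genes (grey) with DMSO (solid), PMA 2 h (dashed) and PMA 6 h (dotted). In WT DMSO the red line goes from 8.81 in the first stretch to 5.23 in the last, and the grey line stays between 13.7 and 16.3.

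The finger-coding exons held few regions. Over the last coding exons of all ZNF genes lay 7, 7 and 13 regions in A3B KO cells (DMSO, PMA 2 h, PMA 6 h) and 10, 7 and 4 in WT cells. That is 1.09 to 3.54 per 100 kb, against 11.1 to 17.4 in the last coding exons of the other genes. The regions resumed behind the gene: the 2 kb past the 3′ end held 11.04 per 100 kb in A3B KO DMSO and 8.75 in WT DMSO, against 24.8 and 25.2 for the other genes. Of all 100-base stretches of the ZNF last coding exons 98.3% occurred once in the genome, against 96.1% for the other genes. The part of mapping in the low density was not tested.

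In ZNF genes base composition moved with position in the same way. The median GC content of ZNF genes was 48.8% at starts, 43.0% in bodies, 41.5% in the last 2 kb and 40.9% in the last coding exon. In the other genes of the chromosome it was 55.5%, 52.5%, 54.8% and 61.9%. Their density did not follow it: in WT DMSO the last coding exon held 14.3 regions per 100 kb, against 19.4 at starts and 20.4 in the last 2 kb. Across the 240 ZNF genes the density of regions followed GC content with a Spearman coefficient of 0.31 to 0.42 in the 6 lists, a description of genes that share library and neighbourhood. The part of GC content in the position pattern was not tested.

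The feature that marked the regions most was a run of A or T. Of the DRIP regions in ZNF bodies 61.3 to 69.1% held 15 or more A in a row or 15 or more T in a row, against 12.8% of all 500-bp windows of these bodies, called or not. T runs on the coding strand were the more frequent, in 39.1 to 45.7% of regions against 8.23% of windows, and A runs were in 23.6 to 26.9% against 4.83%. Regions of the other chromosome 19 genes held such runs in 54.7 to 62.6%, against 14.9% of their windows, so the feature was not particular to ZNF genes.

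The strongest regions held it most often. Among ZNF body regions above the 90 percentile of their list by fold enrichment, 83.7%, 96.2% and 97.0% held an A or T run in A3B KO cells (DMSO, PMA 2 h, PMA 6 h) and 85.0%, 94.3% and 95.2% in WT cells. The share was 40.2 to 52.4% at ZNF starts, against 11.1% of windows there, and 46.8 to 60.0% in the last 2 kb, against 8.40%. None of the 617 windows of ZNF last coding exons held one. Nor did any of the 407 windows of last coding exons of the other genes. The density reported above covers all last coding exons of the other genes, many of them shorter than a window. That density was not computed for the 407 windows alone. The run itself sat off the summit: its middle lay a median of 124.5 to 141.5 bp from the midpoint of the region. Only 27.6 to 31.9% of the runs lay within 100 bp of it, a span that makes up 40% of a region.

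Windows gave the same comparison from the other side. Of 1705 ZNF body windows with a run, 15.95%, 20.5% and 26.7% held the midpoint of a region in A3B KO cells (DMSO, PMA 2 h, PMA 6 h) and 13.96%, 18.8% and 28.7% in WT cells. Of 11566 windows without a run, 2.09%, 2.43% and 3.57% did in A3B KO cells and 1.96%, 2.16% and 3.99% in WT cells. Windows with a run were thus called several times as often as windows without one in each list.

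The gap between ZNF genes and their neighbours depended on the kind of window. In windows with a run and a GC content of 45% or more, 20.8% of ZNF windows (18.1 to 23.9%) held a midpoint in A3B KO DMSO, against 20.7% of windows of the other genes (19.6 to 21.7%). In A3B KO PMA 6 h the values were 32.6% and 32.7%, whereas in WT DMSO they were 18.2% (15.6 to 21.08%) and 22.0% (20.96 to 23.1%). In windows with neither a run nor that GC content, ZNF genes were lower in each list, as in A3B KO DMSO with 1.32% (1.09 to 1.61%) against 2.49% (2.18 to 2.84%). In WT DMSO those windows gave 1.12% (0.900 to 1.39%) against 2.37% (2.07 to 2.71%). ZNF last coding exons resemble such windows, with no run in any window and a median GC content of 40.9%. Whether these exons were sparser than body DNA of that kind was not tested.

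Mixed purine tracts were rarer. A stretch of 25 or more bases with only A and G and at least 5 G, or its complement, was in 10.7 to 12.8% of ZNF body regions, against 3.06% of windows. At most 1 ZNF body region with an A or T run per list had under 50% of its 100-base stretches unique in the genome. The patterns of A, T, purine and pyrimidine were searched for after the regions had been seen, so they describe these lists and are not independent evidence.

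Gene starts showed only a small contrast for G runs. Of the DRIP regions near ZNF starts 82.1%, 79.8% and 72.0% held GGGG in A3B KO cells (DMSO, PMA 2 h, PMA 6 h). In WT cells 87.6%, 80.6% and 80.2% did, against 76.0% of all windows there. CCCC was in 73.2%, 67.2% and 68.5% in A3B KO cells and 66.0%, 60.2% and 64.1% in WT cells, against 72.5%. GGGG was thus above the windows in each list but A3B KO PMA 6 h. CCCC was below them in each list but A3B KO DMSO. In the RefSeq promoters (GRCh38.p14), where 210 of the 240 symbols matched, GGGG was in 77.0% of 261 ZNF promoters and in 75.1% of all promoters. A start region was present in all 6 lists in 28 ZNF genes (11.7%, against 18.5% of all genes) and in none in 100 (41.7%, against 44.7%). An example of each kind is given by the 250 bases before the RefSeq start, with runs of 4 or more G in capitals. ZNF865 had start regions in all lists, 4, 3 and 2 in A3B KO cells and 4, 2 and 6 in WT cells. ZNF224, a repressor of the aldolase A gene, had no region in any DRIP list.
ZNF865 promoter (chr19:55605397-55605646, plus): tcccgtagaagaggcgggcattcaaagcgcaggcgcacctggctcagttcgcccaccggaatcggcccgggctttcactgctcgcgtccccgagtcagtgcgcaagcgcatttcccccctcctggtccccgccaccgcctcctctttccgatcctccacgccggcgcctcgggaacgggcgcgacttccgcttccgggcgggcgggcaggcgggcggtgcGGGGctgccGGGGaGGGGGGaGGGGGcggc
ZNF224 promoter (chr19:44094111-44094360, plus): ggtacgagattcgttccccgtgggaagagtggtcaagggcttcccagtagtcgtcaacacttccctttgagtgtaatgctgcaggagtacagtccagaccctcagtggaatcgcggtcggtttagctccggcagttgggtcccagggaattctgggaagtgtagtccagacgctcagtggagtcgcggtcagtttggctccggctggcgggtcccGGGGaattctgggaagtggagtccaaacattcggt

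The ZNF865 window holds 4 such runs at a GC content of 73.6% and the ZNF224 window 1 at 57.6%. Both windows are free of exons of their gene. The match of letters says nothing of hybrids on its own, and the pair was picked for its contrast.

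Region counts were uneven within the family. The median gene held 2, 2 and 3 regions in A3B KO cells (DMSO, PMA 2 h, PMA 6 h) and 1, 2 and 3 in WT cells, and the highest counts were 26, 26 and 30 in A3B KO cells and 19, 22 and 45 in WT cells. The 24 genes with the most regions held 36.1 to 43.99% of all assignments. A region was present in all 6 lists in 135 genes (56.2%, against 57.4% of all genes) and in no list in 17 (7.08%, against 14.3%), among them ZNF224, ZNF446, ZNF419 and ZNF792. Number followed gene length with a Spearman coefficient of 0.37 to 0.53, and density followed the number of fingers with -0.16 to -0.05, over 240 genes.

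Several of the genes with the most regions were long. ZNF562, also among the highest with WT DMSO, held 12 regions there over 33294 bp. ZNF490, 63999 bp long with 13 fingers, held 18, 19 and 30 regions in A3B KO cells and 19, 21 and 21 in WT cells. ZNF627 in the same cluster held 17, 23 and 22 in A3B KO cells and 17, 16 and 26 in WT cells. Both held regions in every list. ZNF791 lies within ZNF490, so regions inside ZNF791 counted for each of them. ZNF536, a repressor of neuronal differentiation with the longest gene of the family, held 13, 11 and 23 in A3B KO cells and 16, 16 and 32 in WT cells over 488696 bp.

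ZNF573 held the highest region of the family by median rank, a site 28388 bp from the start in A3B KO DMSO and within 50 bp of that place in the other lists. Its fold enrichment was 10.98, 16.3 and 15.96 in A3B KO cells and 6.40, 14.6 and 15.8 in WT cells. The site stood at the 98.8, 99.6 and 99.7 percentile in A3B KO cells and at 85.2, 99.6 and 99.6 in WT cells, lowest in WT DMSO. The highest region of the median ZNF gene stood at the 74.2, 74.2 and 76.9 percentile in A3B KO cells and at 72.4, 75.5 and 80.3 in WT cells.

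Genes of known role spanned the whole range. ZNF274, which brings SETDB1 to the 3′ ends of other ZNF genes, held 5, 5 and 5 regions in A3B KO cells and 4, 3 and 5 in WT cells. ZNF331, an imprinted gene, held 5, 7 and 10 in A3B KO cells and 3, 7 and 12 in WT cells, none of them near its start. ZNF541, a gene of the germline, held 9, 11 and 13 in A3B KO cells and 7, 12 and 12 in WT cells. Each of these 3 genes held regions in every list. ZNF93, which represses LINE-1 elements, held 0, 1 and 0 in A3B KO cells and 1, 0 and 3 in WT cells over 62552 bp. ZNF473, which takes part in histone mRNA processing, held 3, 0 and 3 in A3B KO cells and 2, 2 and 2 in WT cells. ZNF675 held 7, 10 and 14 in A3B KO cells and 2, 3 and 7 in WT cells, higher in A3B KO at each time.

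The genes form 20 clusters when split at gaps over 500 kb, 8 of them of a single gene. The cluster from ZNF653 to ZNF791, with 25 genes, was dense at 16.2 to 29.3 regions per 100 kb across lists. The cluster from ZNF101 to ZNF254, with 37 genes, was sparse at 3.88 to 9.06. The cluster from ZNF302 to ZNF792, with 5 genes over 61.3 kb, held 1 region in A3B KO PMA 2 h, in ZNF302, and none in the other lists. The 11 genes with under 5 fingers held 19.8 to 26.9 regions per 100 kb and the 69 with 15 or more held 7.76 to 14.7.

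The comparison of A3B KO with WT asks whether loss of A3B leaves more R-loops. At the level of genes with a region it gave small counts on both sides. With DMSO, of 189 ZNF genes with a region in either line, 21 (11.1%) had one in A3B KO alone and 17 (8.99%) in WT alone, against 8.69% and 6.41% of all genes. After PMA for 2 h it was 24 (11.9%) and 12 (5.97%) of 201, against 9.42% and 6.05%. After PMA for 6 h it was 12 (5.56%) and 8 (3.70%) of 216, against 5.37% and 5.90%. With lists of equal length the counts were 18 (9.68%) and 19 (10.2%) with DMSO, against 8.13% and 7.29% of all genes. They were 26 (13.7%) and 19 (10%) at 2 h, against 9.90% and 8.01%. At 6 h they were 16 (8.51%) and 13 (6.91%), against 9.14% and 8.68%. With a −log10 q of at least 5 the counts were 31 and 18 with DMSO, 31 and 18 at 2 h, and 12 and 15 at 6 h. No share over all genes stands beside these counts. The order of the lines thus changed with the setting with DMSO and at 6 h.

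The share of the whole list that fell in ZNF genes was alike in both lines at the first times. The ratio of A3B KO to WT shares was 1.03 (0.921 to 1.16) with DMSO and 1.06 (0.9503 to 1.17) at 2 h. At 6 h it was 0.865 (0.795 to 0.941), from 1031 regions in A3B KO against 1169 in WT. Other chromosome 19 genes gave 0.896 (0.858 to 0.936), 1.04 (0.998 to 1.08) and 0.879 (0.848 to 0.911), so the lower share at 6 h was not confined to ZNF genes.

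Among ZNF genes the difference at 6 h lay in 1 cluster, ZNF175 to ZNF331, with 39 genes. There the A3B KO list held 256 regions against 375 in the WT list, a share ratio of 0.670 (0.569 to 0.787). The other 201 ZNF genes had 775 against 794 regions, a ratio of 0.957 (0.866 to 1.06). Counted as called peaks, the cluster did not differ, with 205 in A3B KO and 200 in WT. The WT peaks were wider and held more summits: 11 peaks of 5 or more summits held 123 of the 375 regions (32.8%), and 1 peak alone held 28. The covered length was 125 kb in A3B KO and 181 kb in WT. The part of the number of summits per peak in this difference was not tested.

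The excess lay mostly between 1050 and 1350 kb from the start of ZNF175, bins chosen after the map was seen. These held 80, 94 and 74 regions in A3B KO cells (DMSO, PMA 2 h, PMA 6 h) and 50, 42 and 172 in WT cells. A3B KO was therefore higher than WT with DMSO and at 2 h and lower at 6 h. Outside these bins the cluster held 81, 115 and 182 regions in A3B KO cells and 78, 141 and 203 in WT cells. The same stretch held all 8 anti-GFP regions called in ZNF genes without doxycycline. It also held 5 of the 14 called with doxycycline and DMSO. A link between these calls and the DRIP difference was not tested.

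**Figure D3:**
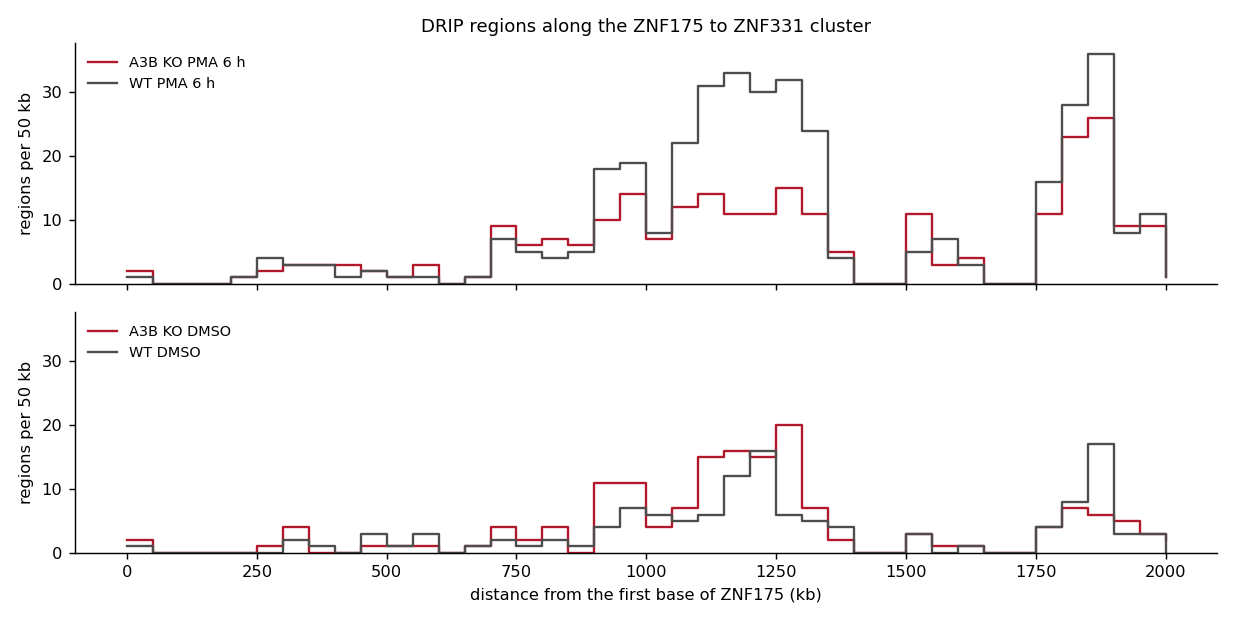
DRIP regions in ZNF genes per 50 kb (vertical axis) along the ZNF175 to ZNF331 cluster, by distance in kb from the first base of ZNF175, in A3B KO (red) and WT (grey) cells after PMA for 6 h (top) and with DMSO (bottom). Between 1050 and 1350 kb the top panel holds 74 regions in A3B KO and 172 in WT, and the bottom panel 80 and 50.

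ZNF28, ZNF600, ZNF611 and ZNF83, in and beside that stretch, were picked for the largest losses in A3B KO against WT at 6 h. ZNF28 held 26, 15 and 17 regions in A3B KO cells and 12, 6 and 38 in WT cells. The 38 regions of WT at 6 h lay in 10 peaks and the 17 of A3B KO in 16 peaks. ZNF600 held 10, 25 and 7 in A3B KO cells and 12, 4 and 33 in WT cells, so the lines stood in opposite order at 2 h and 6 h. ZNF611 held 18, 19 and 17 in A3B KO cells and 12, 9 and 32 in WT cells. ZNF83, their neighbour, held 19, 26 and 23 in A3B KO cells and 13, 21 and 45 in WT cells. That A3B KO was below WT at 6 h in all 4 genes follows from this choice and adds no support to the cluster difference. WT at 6 h was also the highest of its 3 lists in each. ZNF28, ZNF600 and ZNF83 were also picked for the largest gains in WT after PMA for 6 h. ZNF28 overlaps ZNF468, so 1 region can count for both.

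Outside the cluster the lines also differed at single genes that were picked for large gains or losses. ZNF429 held 2, 13 and 11 regions in A3B KO cells and 12, 4 and 12 in WT cells. ZNF490 at 6 h held 30 in A3B KO against 21 in WT, and ZNF675 held 14 against 7. ZNF526 held 6 with DMSO in A3B KO and none in WT, which says that none passed the threshold of the list and not that none was there.

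PMA was compared with DMSO within each line, to ask where hybrids appear after signalling. In A3B KO cells, of 204 ZNF genes with a region in either list, 32 (15.7%) had one after PMA for 2 h alone and 15 (7.35%) with DMSO alone, against 9.11% and 7.09% of all genes. At 6 h it was 39 (18.5%) and 3 (1.42%) of 211, against 10.8% and 4.22%. In WT cells it was 27 (13.8%) and 18 (9.23%) of 195 at 2 h, against 9.67% and 8.75%, and 43 (20.4%) and 7 (3.32%) of 211 at 6 h, against 13.6% and 4.38%. More ZNF genes than genes in general thus held a region after PMA alone in all 4 comparisons.

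List length moved with this result. The PMA lists were 1.22 times as long as the DMSO list at 2 h in both lines, and 1.72 times (A3B KO) and 1.81 times (WT) at 6 h. Cut to equal length, the lists gave 26 ZNF genes after PMA alone (13.5%) and 22 with DMSO alone (11.4%) at 2 h in A3B KO cells, against 8.17% and 10.9% of all genes. At 6 h they gave 25 (13.02%) and 17 (8.85%), against 7.96% and 11.9%. In WT cells they gave 23 (12.04%) and 27 (14.1%) at 2 h, against 8.23% and 11.96%, and 32 (16%) and 28 (14%) at 6 h, against 9.76% and 13.2%. More ZNF genes held a region after PMA alone than with DMSO alone in 3 of these 4 comparisons, and fewer in WT at 2 h. The comparisons of a line share their DMSO list.

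**Figure D4:**
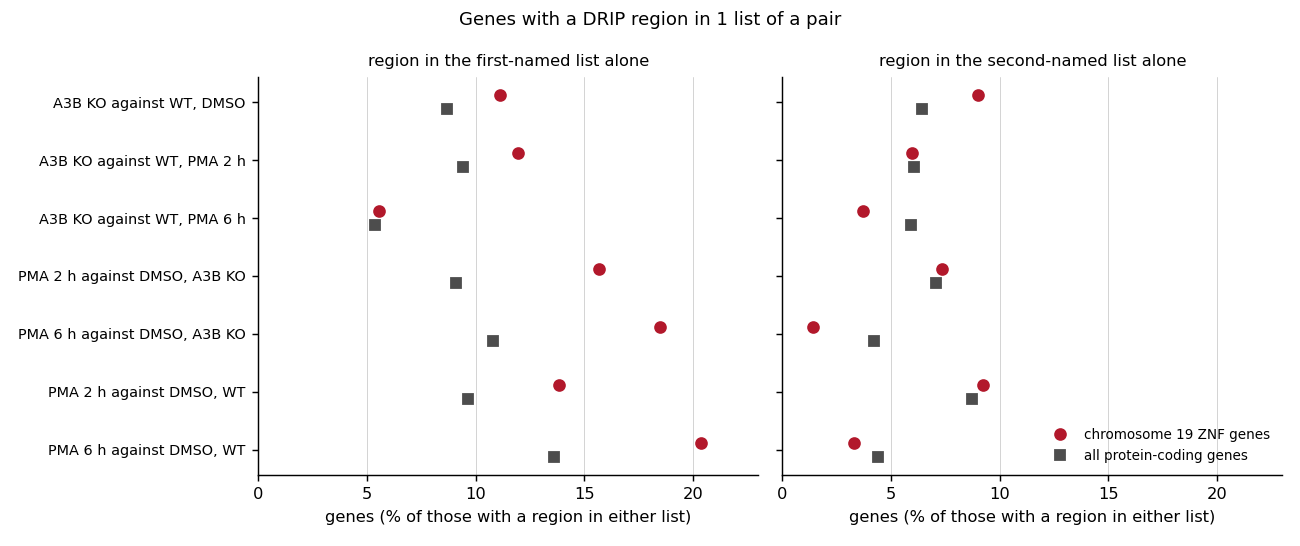
Share of genes with a DRIP region in either list of a pair (horizontal axis, percent) that held one in the first-named list alone (left) or in the second-named alone (right), for chromosome 19 ZNF genes (red circles) and all protein-coding genes (grey squares). ZNF genes stand furthest to the right of all genes for PMA 6 h against DMSO on the left panel (18.5% against 10.8% in A3B KO, 20.4% against 13.6% in WT).

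As a share of the list, ZNF genes and their neighbours differed after PMA for 6 h. The share after PMA for 6 h relative to DMSO was 0.949 (0.859 to 1.05) in A3B KO cells and 1.134 (1.03 to 1.26) in WT cells. For the other chromosome 19 genes it was 0.802 (0.771 to 0.836) and 0.818 (0.787 to 0.851). At 2 h the ZNF ratio was 0.984 (0.884 to 1.095) in A3B KO cells and 0.963 (0.860 to 1.08) in WT cells, against 1.03 (0.990 to 1.08) and 0.891 (0.854 to 0.929) for the other genes, so no like order held at 2 h. Without the ZNF175 to ZNF331 cluster the ZNF ratio in WT was 0.993 (0.883 to 1.12), and the cluster alone gave 1.62 (1.32 to 2.00) in WT and 0.925 (0.757 to 1.134) in A3B KO cells. Before scaling by list length, ZNF genes of A3B KO cells held 1.63 times as many regions at 6 h as with DMSO. All protein-coding genes held 1.62 times as many and the other chromosome 19 genes 1.38 times. In WT cells these values were 2.05, 1.63 and 1.48. In A3B KO cells ZNF genes thus lay near genes in general.

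Single genes, picked for large gains or losses, differed in their course. ZNF765 held 7, 20 and 21 regions in A3B KO cells and 8, 19 and 31 in WT cells, higher after PMA in both lines. Its neighbour ZNF525, which it overlaps, held 1, 8 and 13 in A3B KO cells and 4, 9 and 13 in WT cells. ZNF345 held 0, 7 and 6 in A3B KO cells and 3, 4 and 6 in WT cells. These 3 genes were above their DMSO count at both times in both lines. ZNF91 held 11, 6 and 7 in A3B KO cells and 7, 6 and 6 in WT cells, and ZNF460 held 4, 4 and 1 in A3B KO cells and 5, 1 and 2 in WT cells, at or below the DMSO count throughout.

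A core of regions was common to all conditions. Of 571 WT DMSO regions in ZNF genes 215 (37.7%, 33.8 to 41.7%) overlapped a region in each of the other 5 DRIP lists, against 35.9% (34.5 to 37.3%) in the other chromosome 19 genes. For all protein-coding genes the share was 33.9% (33.5 to 34.3%). The 215 regions lay in 101 of the 240 ZNF genes, beside 8926 of all 19970 protein-coding genes with such a region. Between the lines, 57.9% of A3B KO DMSO regions in ZNF genes overlapped a WT DMSO region, and 62.3% of the WT regions overlapped one of A3B KO. For all protein-coding genes the shares were 57.2% and 59.98%, so the ZNF values lay near the background.

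Few ZNF genes held a region in the anti-GFP lists. With doxycycline and PMA for 2 h, 3 of 240 genes did (1.25%, 0.426 to 3.61%), against 7.81% of all genes and 9.06% of the other genes of the chromosome. With doxycycline and DMSO it was 9 (3.75%, 1.99 to 6.97%), against 9.67% and 9.95%. Without doxycycline, where no A3B-eGFP is induced, it was 3 (1.25%), against 1.64% and 1.86%. With doxycycline ZNF genes were thus below the background, and with PMA they were at the share of the cells without doxycycline.

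The regions were few enough to name. With doxycycline and PMA there were 2: 1 inside both ZNF580 and ZNF581, which overlap, with a fold enrichment of 2.72 at 6082 bp from the start of ZNF580, and 1 in ZNF490 with 3.89 at 4456 bp. Both overlapped a DRIP region in all 6 lists. With doxycycline and DMSO there were 14, among them 3 in ZNF580 and ZNF581 (2.42 to 3.36), 1 in ZNF91 (3.75), 1 in ZNF814 (3.77) and 2 in ZNF446 (2.85 and 3.27), a gene with no DRIP region. Only ZNF586, ZNF837 and ZNF446 had one within 2 kb of the start. The locus of ZNF580 and ZNF581 was the only one found in both lists with doxycycline.

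Background binding fell in 1 place. All 8 regions without doxycycline lay in ZNF28, ZNF468 and ZNF320, with fold enrichments of 3.49 to 4.29, and the same cluster held 5 of the 14 regions with doxycycline and DMSO, all of them in ZNF28. None of the regions with doxycycline overlapped a region without it, but ZNF28 and ZNF468 cannot be counted as places of A3B-eGFP on these lists, as they also held regions where it was not induced. Without them the count with doxycycline and DMSO would be 7 genes. The ChIP cells are not the DRIP cells, so overlaps between the assays compare separate cultures.

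The partners of KRAB zinc finger proteins were also counted. Of 19 genes for such cofactors, fixed as a list by function, 18, 16 and 17 held a DRIP region in A3B KO cells (DMSO, PMA 2 h, PMA 6 h) and 17, 16 and 17 in WT cells, beside the 70.1 to 77.6% of all genes given above. Their median length was 43645 bp, against 27476.5 bp for all genes. SETDB1 held 15, 14 and 25 in A3B KO cells and 13, 14 and 21 in WT cells. TRIM28, which lies on chromosome 19, held none in any list. CBX1, which encodes a heterochromatin protein that binds H3K9me3, held 14, 9 and 21 in A3B KO cells and 10, 10 and 17 in WT cells.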

How the data were processed

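The authors sequenced S9.6 and anti-GFP pull-downs with their inputs, aligned reads to hg38 with STAR 2.6.1d and called peaks with summits by MACS2 against the matching input. The submitters' processing notes give MACS2 2.2.6, and the study's methods name an earlier release. Immunoprecipitates of a condition were pooled before sequencing, and the 9 input libraries were not used here. The deposited lists give regions of 500 bp around each summit with its pileup (a coverage signal in fragments), its −log10 p-value, its ratio (fold enrichment over local background) and its −log10 q-value, as the authors' peak caller wrote them, and every list ends at a −log10 q of about 2. How reads with several alignments were treated, and whether starts count from 0 or 1, is not given in the sources used here (a position could move by 1 bp).

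Regions were placed by midpoint in GENCODE 44 genes: start (within 2 kb of the most 5′ start), last 2 kb, and body (the rest). Regions in overlapping genes counted for each. DRIP reads carry no strand here. Fingers were counted in translated GENCODE coding sequence. Shares have 95% Wilson intervals and densities exact Poisson ones, computed with scipy 1.17.1, pandas 2.3.3 and pysam 0.24.0. Placement was tested on simulated regions. With 1 library per condition no test was possible.

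Genes were named by rule: most regions or strongest region in WT DMSO, largest gains and losses per comparison, highest median rank, anti-GFP regions, known role, and first and last of a cluster. The members and lists were chosen with earlier results of these data known. The sequences of some called regions are not reported here.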

Additional observations from a re-analysis of the deposited data

Results flagged for a closer look

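In 4 ZNF genes the number of DRIP regions moved in opposite directions in the 2 lines after PMA, by 5 regions or more each way. The difference was not tested, as each line has 1 library per time. No such count stands beside it for all protein-coding genes, so whether 4 of 240 is many is not known. In ZNF429 at 2 h A3B KO had 11 more regions than with DMSO and WT had 8 fewer, a difference of 19. In ZNF600 at 2 h A3B KO had 15 more and WT 8 fewer, a difference of 23. In ZNF28 at 6 h A3B KO had 9 fewer and WT 26 more, a difference of -35. In ZNF468, which shares regions with ZNF28, A3B KO at 6 h had 5 fewer and WT 12 more, a difference of -17. ZNF28, ZNF468 and ZNF600 lie in the ZNF175 to ZNF331 cluster, where summits per peak differed between lists.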

How the results depend on the processing

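Of 226 values recomputed under another setting 196 stayed within their interval or within 1.5 times the count, and 30 moved. Keeping regions with a −log10 q of at least 5 gave shares of ZNF genes with a DRIP region of 61.7%, 71.25% and 80.4% in A3B KO cells (DMSO, PMA 2 h, PMA 6 h) and 56.25% (DMSO) and 65.8% (PMA 2 h) in WT cells. It also gave 15 genes with a region in WT alone at 6 h, 67 after PMA 6 h alone in WT, and 4 and 0 genes in the anti-GFP lists with doxycycline and DMSO and without doxycycline. Lists of equal length gave 71.25% (A3B KO PMA 2 h), 72.9% (A3B KO PMA 6 h) and 71.7% (WT PMA 6 h), 19 and 13 genes in WT alone at 2 h and 6 h, 25 after PMA 6 h alone and 17 with DMSO alone in A3B KO cells, and 28 with DMSO alone in WT cells. Leaving out regions in several protein-coding genes gave 53.75%, 60.4% and 66.7% in A3B KO cells and 53.75%, 55.4% and 66.7% in WT cells, start ratios with DMSO of 0.762 (A3B KO) and 0.698 (WT), and 1 gene in the list with doxycycline and PMA. Chosen after seeing the data, the A3B KO to WT share ratio at 6 h was 0.957 without the ZNF175 to ZNF331 genes and 1.003 over called peaks, and the WT ratio of PMA 6 h to DMSO was 0.993 and 0.953. The cause of these moves was not tested. For the −log10 q setting and for leaving out regions in several genes, no shares over all protein-coding genes were computed. Whether ZNF genes moved more than genes in general at these settings is therefore not known. Counting any overlap, zones of 1 kb, each called peak once per gene and zone (for gene shares, gene counts and density ratios), leaving out repeated regions, and ranking by pileup or q moved none of the values they were run on. Library depth is unknown, so differences in list length cannot be told apart from depth. No paired analysis was possible because each condition has 1 library and no test was run.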
